A study of Mus musculus with 12 samples.

Results

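The genes described here encode RNA-binding proteins of 3 name families that bind pre-messenger RNA: the heterogeneous nuclear ribonucleoproteins (hnRNPs), the serine- and arginine-rich splicing factors (SR proteins) and the RNA-binding motif (RBM) proteins. Members were the rows whose symbol starts with Hnrnp, Hnrp, Srsf, Sfrs or Rbm followed by a digit. Hnrnpk and pseudogene symbols were left out. The rule uses names alone, but it was set with earlier results of these data known. This gave 67 of 37477 rows, of which 19 were hnRNP, 13 SR and 35 RBM genes, and 61 of them (18, 12 and 31) were abundant enough to be tested among 8739 rows. The RNA came from CCE cells, a mouse embryonic stem cell line grown in DMEM with fetal bovine serum and LIF, the cytokine that keeps such cells undifferentiated. All 4 groups were transduced with pLKO.1-puro, a lentiviral vector that expresses a short hairpin RNA and a puromycin resistance gene, and were kept in puromycin from the day after transduction. The control group received a control hairpin and was collected at day 2, and the other 3 groups received a hairpin against the long noncoding RNA TUNA and were collected at day 2, day 4 or day 6, with 3 libraries in each group. Days match only in the day 2 comparison: in the day 4 and day 6 comparisons the hairpin and the days in culture cannot be told apart. Nothing in the labels says that replicates were separate cultures, so p-values measure only how these libraries vary, and that variation may be technical.

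SR proteins mostly bind exonic enhancers and help the spliceosome to recognise a neighbouring splice site, and many hnRNPs bind intronic or exonic silencers and oppose that choice. RBM is a naming group rather than 1 family: its members share RNA recognition motifs and act in splicing, ribosome assembly, RNA modification and RNA editing. Many SR and hnRNP genes limit their own output by splicing in an exon that sends their messenger RNA to nonsense-mediated decay, the pathway that degrades transcripts with an early stop codon.

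Per library, 3522469 to 5652962 reads could be recovered from the deposited values, of which 60.4% to 76.9% fell on the rows Rnu3a, Tex14 and LOC100503663. Between 936512 and 2024934 reads were left for all other rows, and the members took 0.66% to 1.31% of those. The median tested member rested on 58.4 to 107 reads per library. The row of the targeted RNA, 2810011L19Rik, was at 0 in each of the 12 libraries and checks neither the knockdown nor the labels. The 8 embryonic stem cell markers summed to 2564 to 2796 normalized counts in the control libraries. In the TUNA hairpin libraries the sum was 2280 to 2399 at day 2, 2048 to 2282 at day 4, then 1592 to 1980 at day 6. The 8 markers did not move together. At day 4 the log2 change from control was negative for Zfp42 (-0.76), Pou5f1 (-0.57), Esrrb (-0.40) and Nanog (-0.23). It was positive for Dppa5a (0.47), Klf4 (0.36), Sox2 (0.16) and Utf1 (0.04). At day 6 it was negative for 7 markers and positive for Utf1 (0.78). In every group 6 of 8 fibroblast, 4 of 6 endoderm and 3 of 3 blood markers were at 0, as were 4, 2, 3 and 3 of 4 trophoblast markers in the control, day 2, day 4 and day 6 libraries. The fibroblast and endoderm sums were low but highest at day 4. They were 5.18 to 12.1 and 2.21 to 8.63 normalized counts in control libraries, and 12.2 to 21.4 and 11.7 to 17.1 at day 4. From control to day 4 the mean of Pdgfra went from 6.04 to 16.6, Gata6 from 3.67 to 11 and Gata4 from 0 to 2.63. Thy1 (1.86 to 0.651) and Sox17 (1.48 to 0) went the other way. The 4 measured neural markers summed to 15.7 to 35.9 normalized counts up to day 4 and to 41.7 to 54 at day 6. That rise was mostly in Nes, whose mean was 4.64 in the control and 28.4 in the day 6 libraries. Tubb3 went from 16.3 to 8.96, and Pax6 (0.863 to 2.83) and Sox1 (4.34 to 6.75) were too low to be tested. The part of these marker shifts in the results below was not tested. Fewer cells of a type and less RNA per cell cannot be told apart in these bulk libraries.

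The members covered a wide range of levels. Per kilobase of the longest coding transcript, the mean level over the 12 libraries was highest for Srsf1 at 432 normalized counts, followed by Hnrnpa2b1 at 373, Srsf3 at 283, Rbm39 at 267, Hnrnpu at 232 and Hnrnpf at 226. The family medians on this scale were 55.6 for SR, 34.1 for hnRNP and 14.7 for RBM genes. Srsf1 and Srsf3 are SR proteins that shuttle between nucleus and cytoplasm, and Hnrnpa2b1 and Hnrnpf are hnRNPs, of which Hnrnpf binds runs of G. Rbm39 resembles the splicing factor U2AF, and Hnrnpu is a scaffold of nuclear RNA and chromatin. At the low end stood Rbm44 with 2.23 and Hnrnpr with 2.64 normalized counts per kilobase. The value of Hnrnpr depends on its longest annotated transcript, which has 21452 bases.

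**Figure D1:**
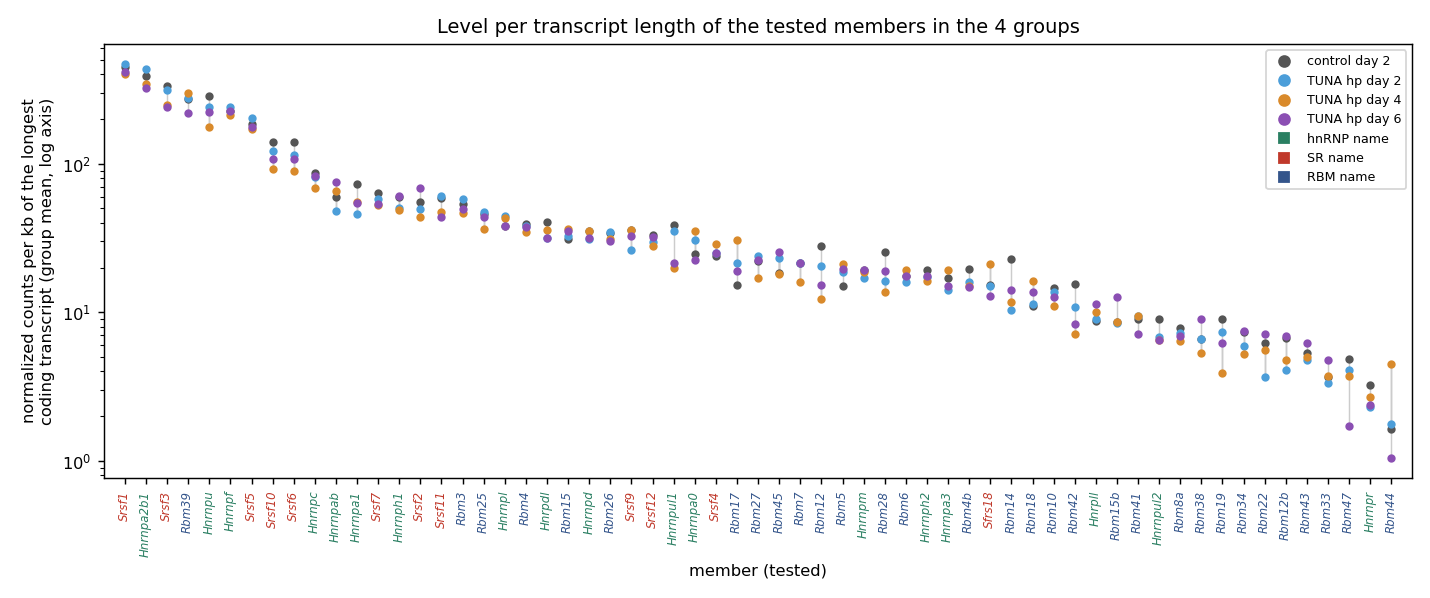
Mean level of each tested member in the control hairpin group and the 3 TUNA hairpin (TUNA hp) groups (points, 3 libraries each), in normalized counts per kilobase of the longest coding transcript (log axis). Members run from the highest mean on the left to the lowest on the right with the name coloured by family, and members of all 3 families stand among the 6 highest.

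The 6 untested members stayed under the filter of 10 normalized counts in at least 3 libraries. Rbm24, an RNA-binding protein of heart and muscle, was at 0 in every library. Hnrnph3 did not exceed 2.05 normalized counts, although its F/H type relatives Hnrnpf and Hnrnph1 averaged 543 and 133. Exons of Hnrnph3 overlap Rufy2 on the opposite strand, and the labels do not say how such overlaps were counted. Rbm46, a germ cell RNA-binding protein, read 0, 2.76 and 3.28 normalized counts in the control libraries and 6.00, 6.92 and 14.2 at day 6. Its day 6 libraries were above all control libraries, but the row was too low to be tested. Rbm11, Rbm20 and Srsf13b were also under the filter, and Srsf13b and Srsf12 are 2 rows for what RefSeq lists as 1 gene.

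Promoter sequence is shown for 5 members that the results turn on: Srsf1, Srsf3 and Hnrnpu, abundant members whose levels shifted together between replicates, and Rbm12 and Hnrnpul1, which fell at both day 4 and day 6. Each run holds the 250 bases before the first start listed in RefSeq on GRCm38.p6, 5′ to 3′ on the gene's strand. Capitals mark the GC box GGGCGG, the CCAAT box and the ETS site CCGGAAG on either strand.
Srsf1 (chr11:88047123-88047372, plus strand): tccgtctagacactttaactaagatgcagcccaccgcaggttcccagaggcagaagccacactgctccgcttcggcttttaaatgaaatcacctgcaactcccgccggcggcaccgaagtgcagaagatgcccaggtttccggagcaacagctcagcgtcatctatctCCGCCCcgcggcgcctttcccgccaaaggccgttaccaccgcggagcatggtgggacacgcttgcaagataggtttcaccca
Srsf3 (chr17:29032410-29032659, plus strand): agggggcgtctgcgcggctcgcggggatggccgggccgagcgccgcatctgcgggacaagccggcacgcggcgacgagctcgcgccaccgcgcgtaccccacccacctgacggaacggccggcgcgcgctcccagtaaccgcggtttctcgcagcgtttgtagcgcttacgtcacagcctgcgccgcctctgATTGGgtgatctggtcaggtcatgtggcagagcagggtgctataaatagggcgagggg
Hnrnpu (chr1:178337816-178338065, minus strand): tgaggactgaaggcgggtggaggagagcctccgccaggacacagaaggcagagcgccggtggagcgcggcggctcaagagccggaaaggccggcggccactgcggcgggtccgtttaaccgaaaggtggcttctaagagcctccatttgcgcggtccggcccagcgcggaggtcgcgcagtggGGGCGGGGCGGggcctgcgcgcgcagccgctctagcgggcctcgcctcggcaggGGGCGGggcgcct
Rbm12 (chr2:156111966-156112215, minus strand): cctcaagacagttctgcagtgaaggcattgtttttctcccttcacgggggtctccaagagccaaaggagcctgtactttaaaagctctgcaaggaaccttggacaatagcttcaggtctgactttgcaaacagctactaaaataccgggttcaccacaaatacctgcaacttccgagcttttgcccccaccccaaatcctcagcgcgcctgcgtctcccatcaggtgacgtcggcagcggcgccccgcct
Hnrnpul1 (chr7:25754760-25755009, minus strand): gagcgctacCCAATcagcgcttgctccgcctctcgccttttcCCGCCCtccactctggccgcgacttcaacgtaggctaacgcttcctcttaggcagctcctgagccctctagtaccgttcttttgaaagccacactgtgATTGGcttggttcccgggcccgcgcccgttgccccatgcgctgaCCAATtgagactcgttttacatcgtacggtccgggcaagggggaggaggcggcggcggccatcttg
Hnrnpu held 3 GC boxes, of which a pair overlap, and Srsf1 held 1. Srsf3 held 1 CCAAT box, Hnrnpul1 held 3 CCAAT boxes and 1 GC box, and none of the 3 motifs was found in the Rbm12 window. Over windows of these 250 bases, 52 of the 61 tested members had a promoter in the table. A GC box was in 59.6% of these, against 62.5% of 5636 promoters of tested rows and 32.9% of all 27025 promoters. The CCAAT box was in 50% of the members' promoters, against 37.4% and 34.5%, and the ETS site in 19.2%, against 16.3% and 7.05%. TGACGT, the short form of the site of CREB-type factors, was in 23.1%, against 11.6% and 6.56%, and TATAAA in 13.5%, against 5.55% and 13.0%. The NRF1 site (GCGC, then A and any base, then GCGC) was in 3.85%, against 10.2% and 3.86%. ACGTG, the core bound by hypoxia-inducible factors, was in 25%, against 23.9% and 16.6%, and CACGTG, which contains it, in 7.69%, against 9.28% and 6.05%. Letters of TGACGT and ACGTG can overlap, and a match is a description of letters and not of a bound site. Members' promoters had a median of 60.0% GC and 19 CpG pairs, against 60.4% and 17 for tested rows and 52.0% and 6 for all promoters.

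Among the most abundant members, replicates of 1 group differed widely. Srsf1 read 2848, 2216 and 2135 normalized counts in the control libraries, 2401, 2409 and 2769 at day 2, 1567, 1949 and 2902 at day 4 and 2084, 1804 and 2748 at day 6. Its replicate 3 was the highest in each TUNA hairpin group, the groups overlapped, and the log2 changes from control of 0.08, -0.20 and -0.13 at day 2, day 4 and day 6 had adjusted p values of 0.922, 0.561 and 0.805 (limma, Benjamini-Hochberg). The same libraries were high for other abundant members. Of the 11 members that averaged 200 normalized counts or more, a level chosen after the values were seen, 10 lay above their own group mean in control replicate 1 and in replicate 3 of the day 2, day 4 and day 6 groups. In control replicates 2 and 3 the number was 2 and 1, and in replicates 1 and 2 it was 1 and 5 at day 2, 1 and 4 at day 4 and 1 and 2 at day 6. The median log2 deviation of the 11 members ran from -0.42 in day 4 replicate 1 to 0.48 in day 4 replicate 3, whereas that of all 775 rows with such a mean ran from -0.07 to 0.06.

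The shift was shared by members of all 3 families. In day 4 replicates 1 and 3, the log2 deviation was -0.59 and 0.58 for Hnrnpu, -0.51 and 0.44 for Srsf3, -0.42 and 0.66 for Srsf10, which acts as a splicing repressor when dephosphorylated, and -0.44 and 0.48 for Rbm39. Hnrnpf did not follow: its deviation in these libraries was 0.14 and -0.08. Its coefficient of variation over replicates was 6.93%, against a median of 22.2% for the 11 members and 13.7% for all 775 rows. One of the 3 dominant rows, LOC100503663, deviated by 0.45, -0.45 and 0 in control replicates 1 to 3, by -0.77, 0.11 and 0.66 at day 4 and by 0, -0.91 and 0.91 at day 6, and its part in the members' shift was not tested. For the 50 tested members with a lower mean, the median deviation per library stayed between -0.09 and 0.09. That median hides opposite shifts. The correlation of their deviations with those of Srsf1 over the 12 libraries ran from -0.86 for Hnrnpl to 0.92 for Hnrnph2. Among members called in the tests below it was 0.84 for Rbm12, 0.73 for Rbm28 and 0.68 for Hnrnpul1, but -0.78 for Srsf2 and -0.63 for Rbm42.

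**Figure D2:**
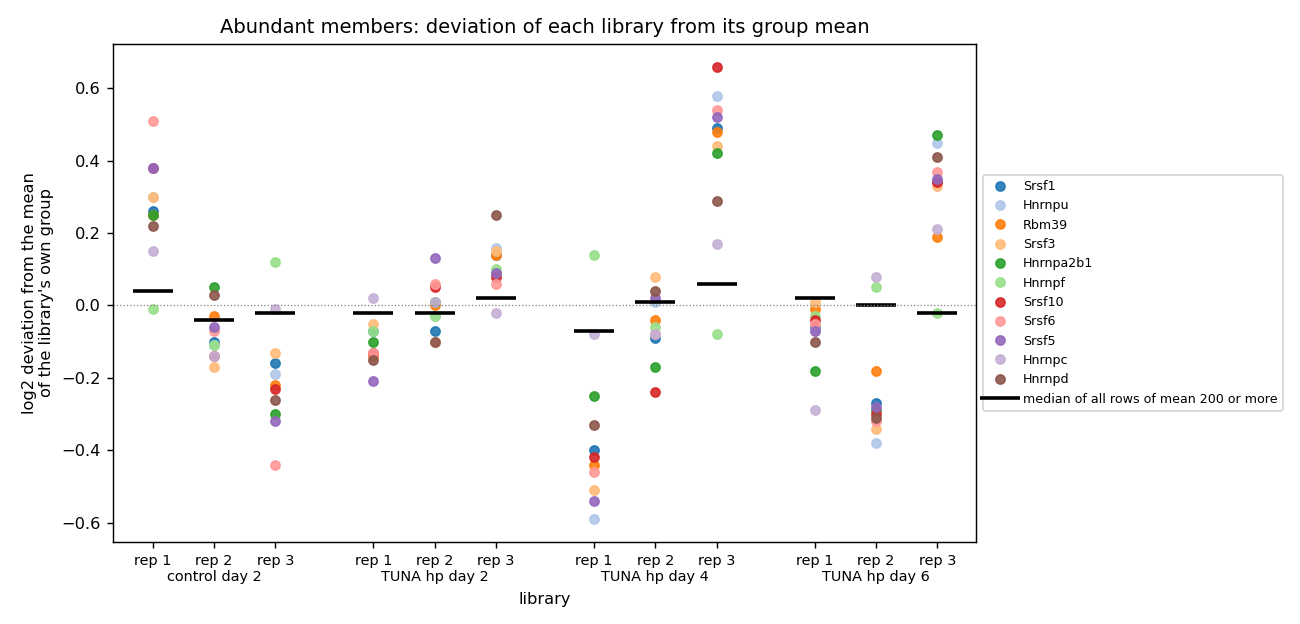
Log2 deviation of each of the 11 most abundant members from the mean of the library's own group, by library, with the median of all 775 rows of mean 200 or more as black bars. Control replicate 1 and replicate 3 of each TUNA hairpin (TUNA hp) group lie high for nearly all members, with Hnrnpf as the clearest exception.

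Before any test was applied, the members leaned lower against the control. At day 2, 37 of 61 members (60.7%) had a negative log2 change, against 49.1% of all tested rows, and the median was -0.10, against 0.01. At day 4 the count was 44 (72.1%, against 50.6%) with a median of -0.19 against -0.01, and at day 6 it was 41 (67.2%, against 51%) with a median of -0.13 against -0.01. These comparisons use the same 3 control libraries. SR genes had medians of -0.11, -0.28 and -0.19 at day 2, day 4 and day 6, hnRNP genes -0.18, -0.17 and -0.18, and RBM genes -0.03, -0.18 and -0.07. The members' median level itself varied between replicates of a group with a log2 SD of 0.157.

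**Figure D3:**
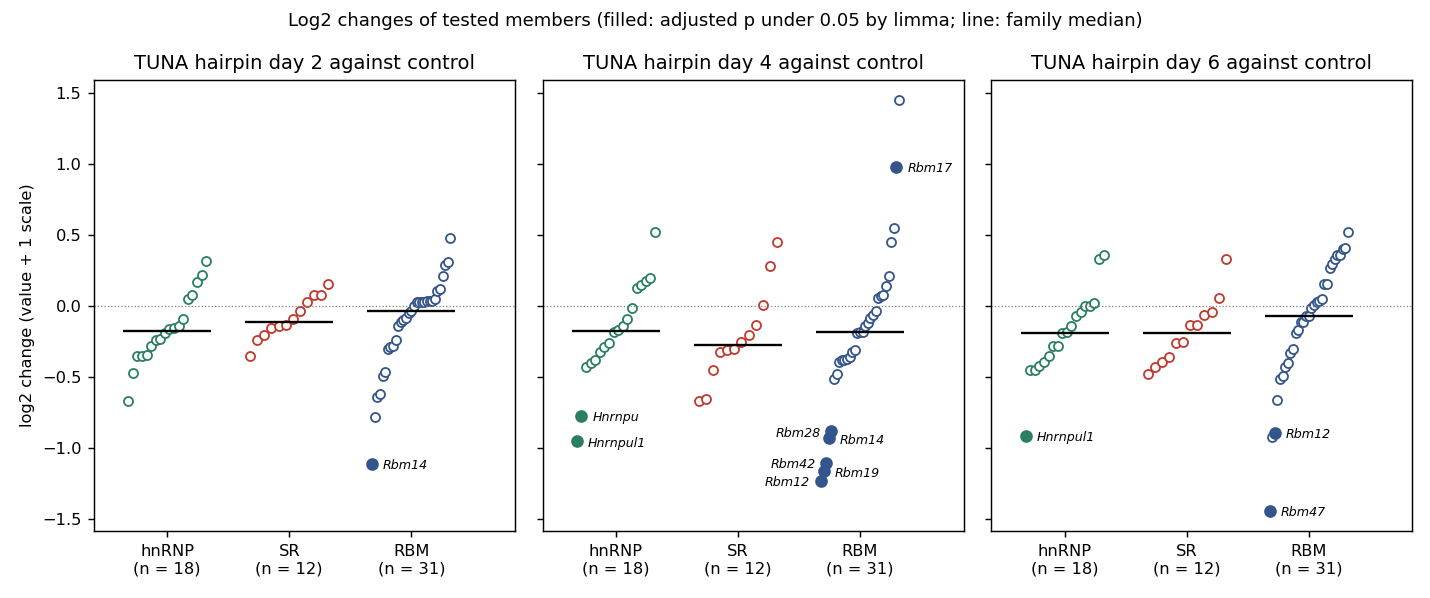
Log2 change of every tested member against the control hairpin at day 2, day 4 and day 6, by family, on the log2(value + 1) scale, with filled points for adjusted p under 0.05 (limma) and bars for the family median. Called members are mostly RBM genes and mostly lower, and no SR gene is filled with all libraries in the fit.

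At day 2, where the hairpins were compared on the same day, only Rbm14 passed the threshold. Of 61 members 0 were called higher and 1 lower by limma, where 0.412% of all tested rows were called higher and 0.549% lower, and 1 and 7 had an unadjusted p under 0.05, as did 5.94% and 6.33% of all rows. With limma-voom on recovered reads 0 were called in either direction. Rbm14, a coactivator and paraspeckle protein, read 74.6, 103.5 and 61.2 normalized counts in the control libraries, 29.9, 48.0 and 31.2 at day 2, 31.6, 42.1 and 49.4 at day 4 and 47.8, 39.8 and 61.7 at day 6. All day 2 and day 4 libraries lay below all control libraries, and 1 day 6 library overlapped the lowest control. The log2 change was -1.11 ± 0.25 (SE) at day 2 with an adjusted p of 0.0421, a fold of 0.456, and -0.93 ± 0.25 at day 4 with an adjusted p of 0.0189. At day 6 it was -0.66 ± 0.25 with an adjusted p of 0.146. The day 2 call was lost without control replicate 1 or 2 or any day 2 replicate (adjusted p up to 0.246; 0.0247 to 0.0652 over the other alternatives). The day 4 call was lost without control replicate 2 or day 4 replicate 1 (up to 0.102). Rbm14 shares exons with the readthrough locus Gm21992, which joins it to Rbm4, so its counts may include reads of that transcript.

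Day 2 groups did not overlap for 10 members below and 3 above the control, where 10.3% and 9.76% of all rows did so. Hnrnpa1, a widely studied splicing repressor, was among the lower ones: its level was 141 ± 4.51 normalized counts (SD, n = 3) in control libraries, 88.5 ± 2.55 at day 2, 106 ± 25.4 at day 4 and 104 ± 17.4 at day 6. The day 2 change of -0.67 ± 0.18 on the log2 scale did not pass after adjustment (limma, adjusted p = 0.11). Stretches of at least 200 bases with at least 95% identity to this gene were found in 9 pseudogenes, and reads could be split between them.

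At day 4 the called members were 7 lower and 1 higher of 61, where 7.76% of all tested rows were called lower and 6.99% higher. The lower ones were Rbm12, Rbm19, Rbm42, Hnrnpul1, Rbm14, Rbm28 and Hnrnpu, and the higher one was Rbm17. Of the 12 SR genes 0 were called at day 4 by limma or by limma-voom, with 1 higher and 3 lower at an unadjusted p under 0.05, where 14.4% and 15.5% of all rows were. Without day 4 replicate 3, Srsf3, Srsf6 and Srsf10 were called lower and the count of lower members was 9, and Srsf6 was also called without control replicate 3 (adjusted p 0.0376). The count of lower members was 4 without control replicate 2, and that of higher members was 2 without control replicate 1, where Rbm44 was added. Rbm44 reached the filter only through its day 4 libraries, so a higher value at day 4 was favoured by the filter. Groups did not overlap for 16 members below and 6 above the control, where 16.9% and 15.5% of all rows did so, and Rbm44 was among the 6.

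Among the members called lower at day 4 against control, the largest log2 change was that of Rbm12, a protein with several RNA recognition motifs. It read 191, 185 and 183 normalized counts in the control libraries, 126, 138.5 and 143 at day 2, 54.4, 91.7 and 98.4 at day 4 and 94.3, 83.0 and 129 at day 6. All TUNA hairpin libraries lay below all control libraries, and all day 4 libraries lay below all day 2 libraries. The log2 change was -0.46 ± 0.21 at day 2 (adjusted p = 0.386), -1.23 ± 0.21 at day 4 (adjusted p = 0.000781, fold 0.437) and -0.89 ± 0.21 at day 6 (adjusted p = 0.0143). The day 6 call was lost without control replicate 1 or day 6 replicate 1 or 2 (adjusted p up to 0.0681). Rbm12 shares exons with Cpne1 on the same strand, which averaged 64.5 to 74.1 normalized counts over the groups and had log2 changes of 0.18, 0.06 and 0.05 (adjusted p 0.724, 0.855 and 0.918).

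Hnrnpul1, an hnRNP U relative that takes part in the response to DNA breaks, fell at the same days. It read 162, 142 and 137 normalized counts in the control libraries, 146, 125 and 128 at day 2, 73.2, 70.0 and 83.1 at day 4 and 72.5, 57.2 and 113 at day 6. Day 2 overlapped the control, and all day 4 and day 6 libraries lay below it. The log2 change was -0.15 ± 0.2 at day 2 (adjusted p = 0.838), -0.95 ± 0.2 at day 4 (adjusted p = 0.00424, fold 0.513) and -0.91 ± 0.2 at day 6 (adjusted p = 0.0105). The day 6 call was lost without control replicate 1 or day 6 replicate 1 or 2 (up to 0.0554).

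Rbm28 and Rbm19 were called lower at day 4 as well. Rbm28, a nucleolar protein and the counterpart of yeast Nop4, read 116, 129 and 93.8 normalized counts in the control libraries, 63.8, 71.6 and 83.2 at day 2, 49.5, 60.4 and 73.7 at day 4 and 90.6, 75.2 and 88.4 at day 6. All 9 TUNA hairpin libraries lay below the control libraries, and only the day 4 change passed the test, at -0.88 ± 0.19 (adjusted p = 0.00465), against -0.62 ± 0.19 at day 2 (0.153) and -0.40 ± 0.19 at day 6 (0.251). Rbm19, the counterpart of yeast Mrd1, read 32.9, 39.2 and 35.7 in the control libraries, 37.5, 30.2 and 21.3 at day 2, 16.7, 18.2 and 12.2 at day 4 and 24.7, 21.4 and 28.9 at day 6. Day 4 lay below every control and day 2 library, and its log2 change from control was -1.16 ± 0.25 (adjusted p = 0.00551), against -0.51 ± 0.25 at day 6 (0.281).

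Rbm42, a binding partner of hnRNP K, read 22.3, 31.9 and 29.5 normalized counts in the control libraries, 21.1, 18.7 and 18.5 at day 2, 14.6, 14.8 and 8.56 at day 4 and 21.4, 11.6 and 11.4 at day 6. All TUNA hairpin libraries lay below the control, with a log2 change of -1.10 ± 0.31 at day 4 (adjusted p = 0.0218) and -0.92 ± 0.31 at day 6 (0.0895). The day 4 call was lost without control replicate 2 or 3 or day 4 replicate 3 (up to 0.0832). Hnrnpu read 2671, 2003 and 1907 in the control libraries, 1673, 1790 and 2054 at day 2, 847.5, 1278 and 1902 at day 4 and 1582, 1271 and 2269 at day 6. The highest day 4 library came within 5 counts of the lowest control, and the log2 change of -0.77 ± 0.25 (adjusted p = 0.0438) was lost without any control replicate or day 4 replicate 1 or 2 (up to 0.195), without the filter and in a fit of the 2 groups alone (0.0357 to 0.0692 over the alternatives). Hnrnpu was among the abundant members whose replicates shifted together.

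Rbm17 was the 1 member called higher at day 4. It encodes a splicing factor that acts at the 3′ splice site. It read 19.6, 28.8 and 25.1 normalized counts in the control libraries, 38.7, 28.0 and 37.0 at day 2, 53.9, 51.6 and 41.3 at day 4 and 30.3, 30.8 and 30.8 at day 6. All day 4 libraries lay above all others, with a log2 change from control of 0.98 ± 0.22 (adjusted p = 0.00599), against 0.48 ± 0.22 at day 2 (0.385) and 0.33 ± 0.22 at day 6 (0.448).

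**Figure D4:**
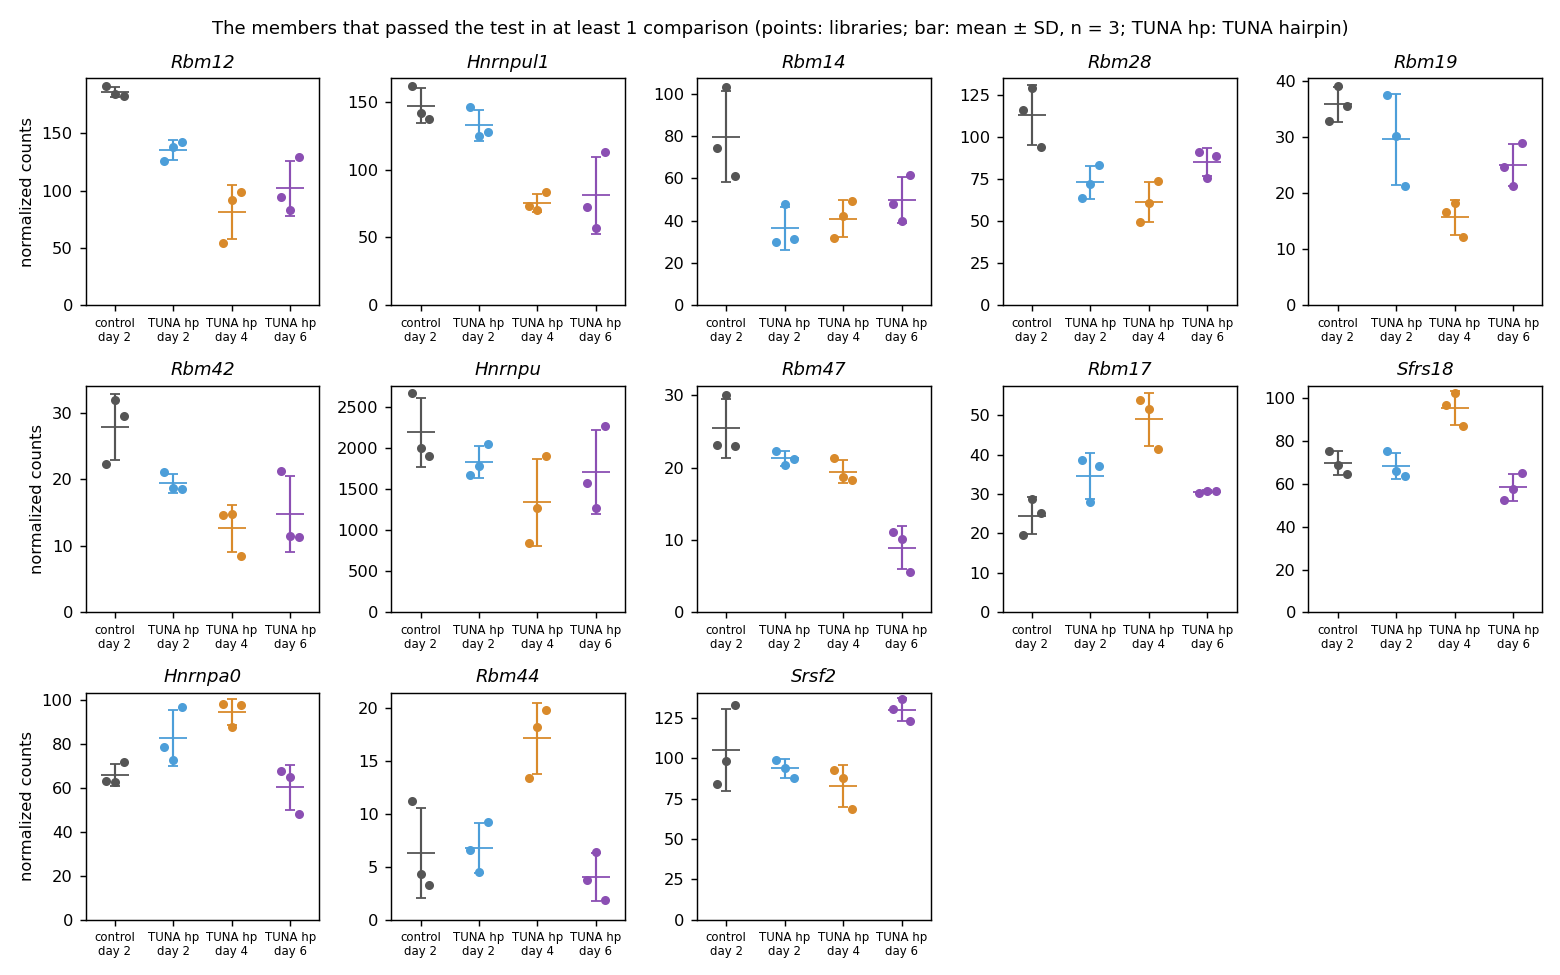
Normalized counts per library of the 13 members called in at least 1 comparison, with 3 libraries (points) in each of the 4 groups and bars for the group mean ± SD. Rbm12 and Hnrnpul1 sit below the control at day 4 and day 6, Rbm47 at day 6, and Rbm17, Sfrs18, Hnrnpa0 and Rbm44 stand highest at day 4.

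At day 6, 3 members were called lower and 0 higher of 61, where 3.15% of all tested rows were called lower and 3.07% higher. At an unadjusted p under 0.05 there were 1 higher and 11 lower members, against 8.96% and 10.5% of all rows, and 0 were called higher by limma-voom. The lower ones were Rbm47, Hnrnpul1 and Rbm12, and leaving out control replicate 1, day 6 replicate 1 or day 6 replicate 2 left 1 call, that of Rbm47. Groups did not overlap for 13 members below and 4 above the control, where 12.8% and 11.2% of all rows did so. Rbm47, a cofactor of the cytidine deaminase Apobec1 in C-to-U RNA editing, read 23.2, 30.1 and 23.0 normalized counts in the control libraries, 22.4, 20.3 and 21.2 at day 2, 21.3, 18.8 and 18.3 at day 4 and 11.2, 10.1 and 5.64 at day 6. The day 6 libraries lay below all others. The log2 change from control was -1.44 ± 0.28 at day 6 (adjusted p = 0.00421, fold 0.352), against -0.24 at day 2 (0.804) and -0.36 at day 4 (0.418).

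Among the TUNA hairpin groups, 3 members were lower at day 4 than at day 2 and 0 were higher, where 4.38% and 3.27% of all tested rows were called. They were Rbm19 (log2 change -0.86 ± 0.25, adjusted p = 0.0472), Hnrnpul1 (-0.81 ± 0.20, 0.0200) and Rbm12 (-0.77 ± 0.21, 0.0296), whose libraries are given above. At an unadjusted p under 0.05 there were 6 higher and 8 lower members, against 11.2% and 12.4% of all rows, and 0 were called higher by limma-voom. The count of 3 fell to 0 without day 2 replicate 1 or 2 or day 4 replicate 1 and to 1 without day 2 replicate 3 or day 4 replicate 2, and the call of Rbm19 was lost under 3 other scalings, without the filter, by limma-voom, with the replicate number as a block and in the 2 groups alone (0.0423 to 0.0932 over the alternatives).

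Between day 4 and day 6, 4 members were called lower and 1 higher, where 2.94% and 2.64% of all tested rows were called, and 1 of the 4, Rbm44, reached the filter only through its day 4 libraries. Besides Rbm47 (-1.08 ± 0.28, adjusted p = 0.0302), the falls were of members whose day 4 level was the highest. Sfrs18, listed by RefSeq as Pnisr, a nuclear protein rich in serine and arginine, read 75.6, 68.8 and 64.4 normalized counts in the control libraries, 75.4, 66.0 and 63.7 at day 2, 96.7, 102.6 and 86.9 at day 4 and 52.5, 57.5 and 65.1 at day 6. Its day 4 libraries lay above all others, and the log2 change from day 4 to day 6 was -0.70 ± 0.16 (adjusted p = 0.0175). Hnrnpa0, which binds AU-rich elements, read 63.0, 62.5 and 71.7 in the control libraries, 78.4, 72.7 and 96.9 at day 2, 98.3, 87.8 and 97.8 at day 4 and 67.5, 64.7 and 48.3 at day 6. Day 6 lay below day 2 and day 4, with a log2 change from day 4 of -0.66 ± 0.18 (adjusted p = 0.0383).

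Rbm44, a protein of the bridges between germ cells, read 11.2, 4.36 and 3.31 normalized counts in the control libraries, 6.63, 4.54 and 9.22 at day 2, 13.4, 18.2 and 19.9 at day 4 and 3.75, 6.41 and 1.90 at day 6. It passed the filter only through its day 4 libraries, which lay above all others, so a lower value on the other days was favoured by the filter. Its log2 change from day 4 to day 6, -1.94 ± 0.49 (adjusted p = 0.0273), is given as a description only. Srsf2, an SR protein that binds exonic enhancers, was the 1 member that rose. It read 84.1, 98.4 and 133 in the control libraries, 99.1, 94.2 and 87.8 at day 2, 92.9, 87.6 and 68.4 at day 4 and 130.5, 137 and 123 at day 6. Its day 6 libraries lay above those of day 4 and day 2 and overlapped the control, with a log2 change from day 4 of 0.65 ± 0.18 (adjusted p = 0.0419). Each of these 5 calls was lost on leaving out 1 library: Srsf2 without any day 6 replicate or day 4 replicate 2 or 3 (up to 0.121), Rbm44 without day 4 replicate 2 or 3 or day 6 replicate 1 or 3 (0.0977), Rbm47 without any day 4 replicate or day 6 replicate 3 (0.0973), Sfrs18 without day 4 replicate 2 or day 6 replicate 1 (0.0874), and Hnrnpa0 without any of the 6 (0.113). The count of falls was 0 without day 4 replicate 2, 1 without day 4 replicate 3 or day 6 replicate 1 or 3, and 2 without day 4 replicate 1, and that of rises was 0 in the cases that lost Srsf2. In a fit of the day 4 and day 6 libraries alone Srsf2, Rbm47, Sfrs18 and Hnrnpa0 did not pass (0.0942, 0.129, 0.079 and 0.116), and with the replicate number as a block Srsf2 and Hnrnpa0 did not (0.0654 and 0.0592).

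The remaining abundant members named by level were not called in any comparison with all 12 libraries. Srsf3 had log2 changes from control of -0.09, -0.45 and -0.48 at day 2, day 4 and day 6 (adjusted p 0.917, 0.165 and 0.221), and Srsf10 of -0.20, -0.67 and -0.39 (0.806, 0.0683 and 0.405). Without day 4 replicate 3, the library in which these genes stood highest at day 4, both were called lower at day 4 (adjusted p 0.0372 and 0.00278), and Srsf10 and Hnrnpu were also called lower from day 2 to day 4 (log2 change -0.80 and -0.82, adjusted p 0.0186 and 0.0334). Hnrnpa2b1 had 0.17, -0.18 and -0.28 (0.81, 0.609 and 0.511) and Rbm39 had 0.03, 0.08 and -0.33 (0.978, 0.82 and 0.384). Hnrnpf was the flattest of them at 545 ± 43.7, 575 ± 37.2, 511 ± 44.8 and 542 ± 16.2 normalized counts (SD, n = 3) in the control, day 2, day 4 and day 6 groups. Rbm25, which regulates 5′ splice site choice, had 0.03, -0.32 and -0.07 (0.97, 0.188 and 0.869), and Rbm15, which guides the enzyme that writes m6A onto RNA, had 0.05, 0.21 and 0.16 (0.933, 0.382 and 0.624). Of the 61 tested members, 13 were called in at least 1 of the 5 comparisons and 48 in none, and 20.7% of all tested rows were called in at least 1. The 13 include Rbm44, whose call was favoured by the filter.

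Genes that work with the members were counted from lists of the spliceosome, of other splicing regulators, of kinases, importers and other enzymes, and of nonsense-mediated decay. Of 56 core spliceosome genes, 7 were lower and 0 higher than control at day 4 by limma, where 7.76% of all tested rows were lower and 6.99% higher. At an unadjusted p under 0.05 there were 13 lower and 0 higher, against 15.5% and 14.4% of all rows, and limma-voom called 6 lower and 0 higher. The list's median log2 change at day 4 was -0.24, against -0.01 for all tested rows. Txnl4a, a protein of the U5 particle, was at 514 ± 42.4 normalized counts (SD, n = 3) in control and 283 ± 21 in day 4 libraries (log2 change -0.85 ± 0.13, adjusted p = 0.000308) and at 410 ± 28.5 at day 6. Snrpb, a core Sm protein, went from 61.5 ± 14.4 to 28.9 ± 8.58 (-1.08 ± 0.24, adjusted p = 0.00602). Syf2, Sf3a1 and Bud31 were called lower as well, with log2 changes of -1.35, -0.85 and -0.76 (adjusted p 0.0134, 0.0415 and 0.0135). Those calls were lost without control replicate 1 or 2 or day 4 replicate 2 for Syf2 (up to 0.0784), control replicate 2 or 3 or day 4 replicate 2 for Sf3a1 (0.181), and control replicate 1 or day 4 replicate 1 for Bud31 (0.0686). That of Sf3a1 was also lost without the filter, by limma-voom and in the 2 groups alone (0.0385 to 0.0859 over the alternatives). In the day 2 and day 6 comparisons with control 0 of 56 were called by limma or by limma-voom. At an unadjusted p under 0.05 there were 2 higher and 1 lower at day 2, against 5.94% and 6.33% of all rows. At day 6 there were 1 higher and 3 lower, against 8.96% and 10.5%. From day 2 to day 4, 4 of 56 fell and 0 rose, where 4.38% of all tested rows were called lower and 3.27% higher. Among the 4 were Txnl4a and Bud31 (log2 change -0.76 and -0.91, adjusted p 0.00145 and 0.00785). Isy1 and Prpf31 were the others (-0.67 and -0.55, limma, adjusted p 0.0435 and 0.0372). Their calls were lost without day 2 replicate 1 or 3 or day 4 replicate 1 or 2, and that of Isy1 also without the remaining libraries (up to 0.195 and 0.142). From day 4 to day 6, Sf3a1, Bud31 and Txnl4a rose (log2 change 0.94, 0.72 and 0.53, adjusted p 0.049, 0.0359 and 0.0192). They were 3 of 56, where 2.64% of all tested rows were called higher. Each of these 3 rises was lost without day 4 replicate 2 or day 6 replicate 2, among other libraries (up to 0.197, 0.127 and 0.0742), and in the 2 groups alone.

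Of 51 other splicing regulators, limma called 1 higher and 0 lower at day 2, 3 higher and 5 lower at day 4, and 2 higher and 0 lower at day 6, where 6.99% and 7.76% of all tested rows were called at day 4 and 3.07% and 3.15% at day 6. At day 2 the shares of all rows were 0.412% and 0.549%. At an unadjusted p under 0.05 there were 3 lower at day 2 and 5 lower at day 6, against 6.33% and 10.5% of all rows. Limma-voom called 1 higher and 0 lower at day 2, 3 and 4 at day 4, and 2 and 2 at day 6. Mbnl2, a muscleblind protein that promotes adult splicing patterns, rose on all 3 days, from 63.1 ± 1.08 normalized counts (SD, n = 3) in control libraries to 108 ± 8.75, 118 ± 10.3 and 133 ± 15.7 (log2 change 0.77, 0.89 and 1.05, each ± 0.15, adjusted p 0.0217, 0.000912 and 0.000372). The day 2 call of Mbnl2 was lost without any control replicate or day 2 replicate 2 or 3 (adjusted p up to 0.104). Rbms1, a single-strand-binding protein outside the naming rule, was at 13.1 ± 3.91 in control, 30.9 ± 6.9 at day 4 and 50.2 ± 1.24 at day 6 (log2 change 1.19 and 1.89, adjusted p 0.00471 and 0.000211). Srrt, Pcbp4, Fubp3, Ptbp1 and Bclaf1 were called lower at day 4, with log2 changes of -1.29, -1.25, -0.78, -0.76 and -0.46, and Rod1 higher with 0.48. Ptbp1, the polypyrimidine tract-binding repressor, was at 73.2 ± 4 in control and 43.9 ± 12 in day 4 libraries (adjusted p = 0.0339). Its call and that of Pcbp4 (0.0251) were lost without any control replicate or day 4 replicate 2, and also without day 4 replicate 3 for Ptbp1 and day 4 replicate 1 for Pcbp4 (up to 0.143 and 0.114). The calls of Rod1 (0.045) and Bclaf1 (0.0339) were lost when control replicate 1 or 3, or day 4 replicate 2 or 3, was left out, and that of Bclaf1 also without the remaining libraries (up to 0.185 and 0.118). The call of Ptbp1 was also lost by limma-voom, that of Rod1 without the filter, and those of Rod1 and Bclaf1 in the 2 groups alone. From day 2 to day 4, 1 of these 51 regulators rose and 2 fell, where 3.27% of all tested rows were called higher and 4.38% lower. Elavl2 rose (log2 change 0.72, limma, adjusted p 0.0246), and Srrt and Fubp3 fell (-1.09 and -0.81, 0.013 and 0.00616). The calls of Elavl2 and Srrt were lost without day 2 replicate 2 or 3 or day 4 replicate 2, among other libraries for Elavl2 (up to 0.106 and 0.0806). From day 4 to day 6, 3 rose and 0 fell, where 2.64% and 2.94% of all tested rows were called. The 3 were Pcbp4, Ptbp1 and Khdrbs1 (log2 change 1.24, 0.87 and 0.77, limma, adjusted p 0.0494, 0.0347 and 0.0144). Pcbp4 and Ptbp1 thus rose again after their lower day 4 level. Each of these rises was lost without day 4 replicate 2 or day 6 replicate 1 or 3, among other libraries (up to 0.19, 0.144 and 0.0581), and in the 2 groups alone.

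SR proteins are phosphorylated by the Srpk and Clk kinases. These kinases were counted in a list with importers and other enzymes, such as Akt1, Prmt1 and Ppp1ca. Of its 16 tested genes, 2 rose and 2 fell at day 4, where 6.99% of all tested rows were called higher and 7.76% lower. Clk1 was at 65.5 ± 8.06 normalized counts (SD, n = 3) in control and 122 ± 8.29 in day 4 libraries (log2 change 0.89 ± 0.16, adjusted p = 0.00123), and Srpk2 had a change of 1.11 ± 0.28 (0.0122). Srpk1 and the importin Tnpo2 fell by 0.60 and 0.55 on the log2 scale (adjusted p 0.0139 and 0.0492). The calls were lost without control replicate 1 or 3 or day 4 replicate 2 for Srpk2 (up to 0.0572), control replicate 3 or day 4 replicate 2 for Srpk1 (0.0771) and any control replicate or day 4 replicate 1 or 3 for Tnpo2 (0.161). That of Tnpo2 was also lost under 3 other scalings, without the filter, with the replicate block and in the 2 groups alone (0.0413 to 0.0894 over the alternatives). At day 6, 2 of the 16, Akt1 and Clk1, were called higher (1.13 and 0.56, adjusted p 0.0479 and 0.0448), where 3.07% of all tested rows were. Both calls were lost on leaving out any 1 of the 6 libraries (up to 0.162 and 0.191). At day 2, 0 of the 16 were called by limma or limma-voom (1 lower at an unadjusted p under 0.05, against 6.33% of all rows). From day 2 to day 4, 1 rose and 1 fell, where 3.27% and 4.38% of all tested rows were called. Clk1 rose and Tnpo2 fell (log2 change 0.64 and -0.61, limma, adjusted p 0.0198 and 0.0478). Both calls were lost without day 2 replicate 1 or 2, among other libraries (up to 0.0868 and 0.182). Of 12 genes of nonsense-mediated decay and the exon junction complex, 0 were called in any comparison by limma, while at an unadjusted p under 0.05 there were 0 at day 2, 4 lower at day 4 and 2 lower at day 6, against 15.5% and 10.5% of all rows. Limma-voom called 1 lower at day 4 and 1 higher from day 4 to day 6.

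The annotation of the members offers a feature the naming rule did not use. A transcript class subject to nonsense-mediated decay is annotated in GENCODE M21 for 10 of 12 tested SR genes (83.3%), 8 of 18 hnRNP genes (44.4%) and 10 of 31 RBM genes (32.3%), against 30.8% of the 7536 tested rows matched to a coding gene. A transcript with a retained intron is annotated for 68.9% of the members and 63.7% of those rows, and the median number of transcripts per gene is 7 and 5. Rbm39 alone has 25 annotated transcripts, 8 of them subject to decay. The deposited table has 1 value per symbol, so a change in the share of such transcripts was not measured. Stretches of at least 200 bases with at least 95% identity to another gene were found for 29 of the 61 tested members, 13 of them with a pseudogene, and exons of 27 overlap an exon of another gene, so part of their reads may be shared. Among called members, Rbm12, Rbm14, Rbm42 and Rbm47 have such an exon overlap on the same strand. For Rbm19, Hnrnpu and Srsf2 it is only on the opposite strand.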

How the data were processed

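Total RNA libraries from transduced CCE cells were sequenced, and the authors deposited 1 table of log2 normalized counts for 37477 symbols by 12 libraries. Per the submitters' processing notes, BWA, DESeq and the mouse build mm9 were used, with no version or role given. The lowest deposited log2 value is 0, so a row at 0 held 1 normalized count or less. Values were raised to normalized counts and zeros kept at 0, which makes means that include them lower bounds. The 8739 rows that reached 10 normalized counts in 3 or more libraries were tested. After a pseudocount of 1 and a log2 transform, limma 3.58.1 (R 4.3.3) fitted all 12 libraries with a mean for each group and a variance trend (8 residual and 9.48 prior degrees of freedom), with two-sided moderated tests and Benjamini-Hochberg adjustment over all rows within a comparison, at a threshold of 0.05. A count test was not used, since the values are log2 and the recovered reads are not whole. Log2 changes understate those of low rows, and normalization rests on all rows, with 3 rows holding most reads. The script was tested on simulated data. Named genes were, by rule, every member past the threshold, the 3 most abundant of each family, members at 0 in every library, and up to 5 called genes per list and direction. The members and lists were chosen with earlier results of these data known. Names, transcript lengths and overlaps came from GENCODE M21 and promoters from RefSeq, both GRCm38; 62 of 67 members matched by symbol and 5 by synonym, and similar genes were found with blastn 2.17.0. Alternatives were 3 other scalings, other filters and pseudocounts, limma-voom on recovered reads, a replicate block, a fit of the compared groups alone, a stricter threshold and leaving out each library. Replicate numbers were not used to pair the libraries in the main fit.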

Additional observations from a re-analysis of the deposited data

How the results depend on the processing

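The members' counts were small, and several moved with the processing. Against a main count of 1 lower at day 2, no filter and limma-voom gave 0, a fit of the 2 groups alone gave 2 and a threshold of 0.01 gave 0. For members higher at day 4 (main 1), a filter of 20, a pseudocount of 5 and the 2 groups alone gave 2, and limma-voom gave 3. A threshold of 0.01 gave 4 lower at day 4, 1 lower at day 6, 0 lower from day 2 to day 4, and 0 higher and 0 lower from day 4 to day 6. From day 4 to day 6, no filter and the 2 groups alone gave 0 higher, and the 2 groups alone gave 1 lower. The cause of these moves was not tested. Leaving out each library gave 0 higher and 0 to 1 lower with a median of -0.15 to -0.05 at day 2, 1 to 2 higher and 4 to 9 lower with -0.25 to -0.16 at day 4, and 0 higher and 1 to 3 lower with -0.19 to -0.06 at day 6. It gave 0 to 1 higher and 0 to 4 lower with -0.14 to -0.05 from day 2 to day 4, and 0 to 1 higher and 0 to 3 lower with 0.03 to 0.14 from day 4 to day 6. Of 20 calls of members, 13 were kept under every alternative that tested the row, other than the threshold of 0.01 and the left-out libraries. Both counts include the call of Rbm44 from day 4 to day 6, which was favoured by the filter. With a filter of 20 Rbm44 was not tested, so its call was absent there. The 6 also kept with each library left out were Rbm12, Hnrnpul1, Rbm28, Rbm19 and Rbm17 at day 4 and Rbm47 at day 6 against control. Other scalings moved the median of all rows by at most 0.034 on the log2 scale.

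Signs turned only for changes that were not called. The log2 change of Hnrnpf at day 6 was 0 under median-of-ratios, 0.01 under trimmed-mean and 0.03 under upper-quartile scaling. Leaving out 1 library gave ranges that span 0. At day 2 they were -0.18 to 0.06 for Srsf3, -0.08 to 0.15 for Rbm39, -0.12 to 0.15 for Rbm25 and -0.05 to 0.13 for Rbm15. At day 4 the range was -0.16 to 0.30 for Rbm39, and at day 6 -0.06 to 0.06 for Hnrnpf, -0.30 to 0.01 for Srsf1 and -0.17 to 0.02 for Rbm25. From day 2 to day 4 it was -0.18 to 0.28 for Rbm39, and from day 4 to day 6 -0.33 to 0.11 for Hnrnpa2b1, -0.13 to 0.32 for Srsf1, -0.29 to 0.19 for Srsf3 and -0.11 to 0.06 for Rbm15.

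Samples sharing a replicate number had correlations of -0.277 to 0.328 in their deviations, and in 0 of 5 comparisons did each exceed 0.1. From day 2 to day 4 (0.033 to 0.13) and from day 4 to day 6 (0.053 to 0.328) each was positive. With 3 libraries per group these values cannot decide whether the numbers pair the libraries. With the replicate block 0 members were higher from day 4 to day 6, against 1 without it, and the other counts of members stayed within 1.5 times. The block also ended the calls of Rbm19 from day 2 to day 4 (adjusted p 0.0603) and of Srsf2 and Hnrnpa0 from day 4 to day 6 (0.0654 and 0.0592). In the lists it ended those of Tnpo2 at day 4 (0.0692), Clk1 at day 6 (0.0603), Isy1, Prpf31 and Tnpo2 from day 2 to day 4 (0.0577, 0.0577 and 0.0681) and Sf3a1 from day 4 to day 6 (0.0627).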
